A study of Mus musculus with 59 samples.

Results

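Wild-type mice given fluoxetine were compared directly with wild-type mice given lithium, with no vehicle animals in the test. The members were taken by the library names of the count table: all 10 wild-type (WT) fluoxetine libraries (5 female, 5 male) and all 10 WT lithium libraries (5 female, 5 male), which are 20 of the 59 libraries in the series. Each library is bulk RNA from dissected prefrontal cortex of a C57BL/6J mouse. The drug reached the pups through the mother's milk for 3 weeks, from postnatal day 3 to day 24, and cortex was collected on day 25. The series also holds mice heterozygous for Ash1l (HT), a histone methyltransferase gene; 10 HT fluoxetine and 9 HT lithium libraries give the same drug contrast in other animals. The 10 WT vehicle libraries serve only to place each drug beside vehicle. The labels give no dose, dam or litter, so the p-values measure the spread between these samples, and drug and litter cannot be told apart.

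Fluoxetine blocks the serotonin transporter and so prolongs serotonin signalling. Lithium inhibits glycogen synthase kinase-3, which marks beta-catenin for destruction, and the phosphatases that recycle inositol for phosphatidylinositol signalling. Neurons answer synaptic activity by rapid transcription of immediate early genes through CREB, SRF and the ERK kinase cascade, and the cascade in turn induces its own inhibitors. Cells that load the endoplasmic reticulum (ER) with unfolded protein induce a separate set of ER chaperones, the unfolded protein response.

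The libraries held 24470332–34192167 reads under fluoxetine and 25462531–35490869 reads under lithium. Values below are normalised counts, that is, reads divided by the size factor of the library. In all 59 libraries the levels of Xist and Ddx3y matched the labelled sex. Slc17a7, the vesicular glutamate transporter of cortical excitatory neurons, ranged over 44200–58140 under fluoxetine (median 47600) and 37620–55600 under lithium (median 49860). The dissections were not uniform. The summed level of 15 striatal markers was 14305–24098 in 4 fluoxetine libraries (female 3, males 1, 4 and 5) and 3 lithium libraries (female 4, males 2 and 3), against 6817–8721 in the other 13. Eomes, an olfactory bulb marker, ranged over 0–781.7 under fluoxetine and 0–750.3 under lithium. The main counts are therefore also given without the 7 libraries rich in striatal markers, an alternative chosen after the data were seen.

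Of 17230 genes tested, 991 differed between fluoxetine and lithium (5.75%; limma with sex as a block, Benjamini-Hochberg adjusted p under 0.05). Fluoxetine was lower for 647 of them (3.76% of the genes tested) and higher for 344 (2%). The differences were small. The median size among the 991 was 0.25 on the log2 scale, or 1.186-fold, and 283 genes differed by at least 25% of the lower group's mean. Of the 8 genes that differed by at least 2-fold, the immediate early gene Egr2 and the death receptor gene Tnfrsf25 are described below. The other 6 had group means under 50 normalised counts and were named after their values were seen. Lrrc17 averaged 15.4 normalised counts under fluoxetine and 6.82 under lithium (log2 1.20, adjusted p = 0.009904), and the predicted genes Gm14340 and Gm33858 were also higher. Ccl21b, a chemokine gene with near-identical copies that make its count uncertain, averaged 0.0 under fluoxetine and 22.4 under lithium, and the predicted genes Gm18706 and Gm9754 were also lower. Ccl21b passed the filter (at least 10 normalised counts in at least 5 libraries) through the lithium libraries alone, so it is listed by value only. For 53 genes (0.308% of those tested) no fluoxetine library overlapped any lithium library, 39 of them lower (0.226%) and 14 higher (0.0813%) in fluoxetine. Without the 7 libraries rich in striatal markers 140 genes passed. All 989 of the 991 that could still be tested kept their sign, with a median size of 0.23. The 991 were chosen in a fit that held these same libraries, so kept signs are not separate evidence.

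**Figure D1:**
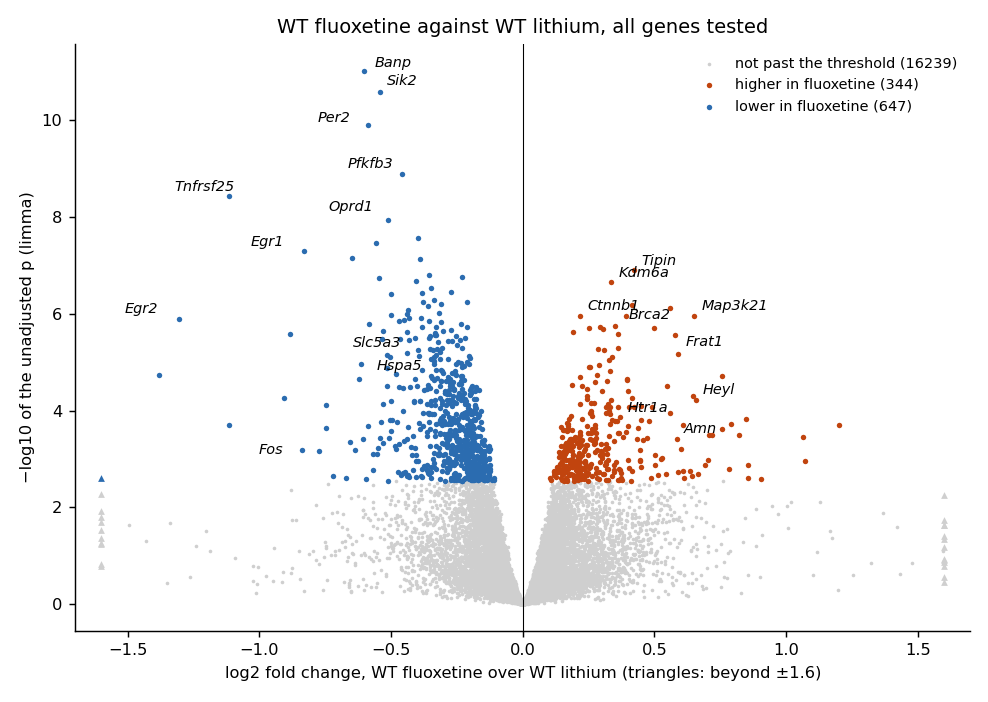
Volcano plot of the 17230 genes tested, with the log2 fold change of WT fluoxetine over WT lithium on the x axis and −log10 of the unadjusted limma p on the y axis. Coloured points are the 991 genes past the threshold; Banp, Sik2 and Per2 lie highest on the side lower in fluoxetine (647 genes), and Tipin and Kdm6a on the side higher in fluoxetine (344 genes).

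The smallest p among the lower genes belonged to Banp (GRCm38 chr8:121949750-122029258), a nuclear protein that binds matrix attachment regions of DNA. Banp had 495.4–681.3 normalised counts under fluoxetine (median 591.6), 829.5–983.6 under lithium (median 892.4) and 724.3–907.8 under vehicle (median 789.8). Every fluoxetine library lay below every lithium library (log2 -0.60 ± 0.05, adjusted p = 1.635e-07; SE, n = 10 each, here and below). Sik2 (chr9:50892801-51009073), a salt-inducible kinase that keeps the coactivators of CREB out of the nucleus, had 705.6–836.3 normalised counts under fluoxetine (median 774.3), 1031–1310 under lithium (median 1090) and 617–1062 under vehicle (median 952.5). Its groups did not overlap either (log2 -0.54 ± 0.05, adjusted p = 2.231e-07). Beside vehicle, Sik2 was lower under fluoxetine (log2 -0.27, adjusted p = 0.007736) and higher under lithium (log2 0.27, adjusted p = 0.02178). Sik2 was chosen for its difference between the drugs, and both contrasts share vehicle. Opposite signs are therefore in part built in and are not separate evidence.

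Pfkfb3, whose product raises glycolytic flux, had 655.4–862.2 normalised counts under fluoxetine (median 785), 976.8–1245 under lithium (median 1064) and 841.9–1058 under vehicle (median 968.4). The drug groups did not overlap (log2 -0.46 ± 0.05, adjusted p = 5.538e-06). Tnfrsf25, a death receptor of the tumour necrosis factor receptor family, had 44.17–111.3 normalised counts under fluoxetine (median 80.93), 112.9–209.7 under lithium (median 172.2) and 144.7–263.1 under vehicle (median 208). All 10 fluoxetine libraries lay below all lithium libraries (log2 -1.12 ± 0.12, adjusted p = 1.274e-05). Beside vehicle its log2 fold change was -1.38 under fluoxetine (adjusted p = 2.373e-08) and -0.26 under lithium (adjusted p = 0.3146). Oprd1, the delta opioid receptor gene, had 393.3–522.9 normalised counts under fluoxetine (median 432.4), 578.9–691 under lithium (median 645.8) and 268.1–730.8 under vehicle (median 554.5). Again no library overlapped (log2 -0.51 ± 0.06, adjusted p = 3.332e-05).

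The cochaperone genes Dnajb5 (log2 -0.40) and Dnajc1 (log2 -0.36) and the gene Fam53b (log2 -0.56) were likewise lower in all 10 fluoxetine libraries than in any lithium library. Dok3, an adaptor of immune receptor signalling, was lower (log2 -0.65) with 9 of 10 fluoxetine libraries below every lithium library. P4ha1, a subunit of collagen prolyl hydroxylase, was lower (log2 -0.39) with 8 of 10. Serinc2 had 55.53–103.1 normalised counts under fluoxetine (median 86.79) and 78.47–250.7 under lithium (median 134.9). Its groups overlapped, with 2 of 10 fluoxetine libraries below the lithium range (log2 -0.75 ± 0.16, adjusted p = 0.005468). Without the libraries rich in striatal markers Serinc2 did not pass (log2 -0.62, adjusted p = 0.136).

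Among the genes higher in fluoxetine, Tipin (chr9:64281581-64305424), of the replication fork protection complex, had 262.2–343.8 normalised counts under fluoxetine (median 308.9), 196.7–257.3 under lithium (median 224.8) and 195.9–288.2 under vehicle (median 228.2). The drug groups did not overlap (log2 0.42 ± 0.06, adjusted p = 0.0001785). Kdm6a (chrX:18162575-18279936), an X-linked histone demethylase gene that escapes X inactivation, had 876.9–1238 normalised counts under fluoxetine (median 1091), 639.9–1036 under lithium (median 832.3) and 744–1037 under vehicle (median 952.2). The pooled groups overlapped, and with sex as a block the difference passed (log2 0.34 ± 0.05, adjusted p = 0.0002267); it was 0.23 in females and 0.44 in males. Eif2s3x, an X-linked gene for a subunit of the translation initiation factor that delivers the initiator tRNA, also overlapped between the groups (log2 0.19 ± 0.03, adjusted p = 0.0007151). The call of Eif2s3x ended without the term for sex and without the libraries rich in striatal markers.

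Ctnnb1 (chr9:120929216-120960507) encodes beta-catenin, the protein whose breakdown glycogen synthase kinase-3 starts. Its message had 17060–19530 normalised counts under fluoxetine (median 18360), 14820–16620 under lithium (median 15900) and 14050–19280 under vehicle (median 17600). All 10 fluoxetine libraries were above all 10 lithium libraries (log2 0.22 ± 0.03, adjusted p = 0.0005515). Without the libraries rich in striatal markers its value was near the same size and did not pass (log2 0.20, adjusted p = 0.0644). Other top genes higher in fluoxetine were Zc3h6 (log2 0.42), the mixed-lineage kinase gene Map3k21 (log2 0.65), Hunk, a kinase related to AMPK (log2 0.39), Id2, an inhibitor of basic helix-loop-helix factors (log2 0.35), Rhbdl1 (log2 0.29), Brca2, of homologous recombination (log2 0.50), and Pnck, a calmodulin-dependent kinase (log2 0.30). Zc3h6 and Pnck had groups with no overlap.

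Larger folds came with wider spread. Heyl, a Notch-induced repressor gene, had 183.1–303.4 normalised counts under fluoxetine (median 221.2) and 101.6–221.8 under lithium (median 149.4) (log2 0.66 ± 0.13, adjusted p = 0.004827). Usp43, a deubiquitinase gene, had 214.8–302.7 normalised counts under fluoxetine (median 256.2) and 125.4–242.1 under lithium (median 170.9) (log2 0.59 ± 0.10, adjusted p = 0.001326). Amn, whose product partners cubilin in endocytosis, had 70.78–167.2 normalised counts under fluoxetine (median 116.7) and 55.56–105.5 under lithium (median 77.18) (log2 0.58 ± 0.14, adjusted p = 0.015). The groups overlapped for each of these genes, and without the libraries rich in striatal markers Amn did not pass (log2 0.46, adjusted p = 0.218).

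**Figure D2:**
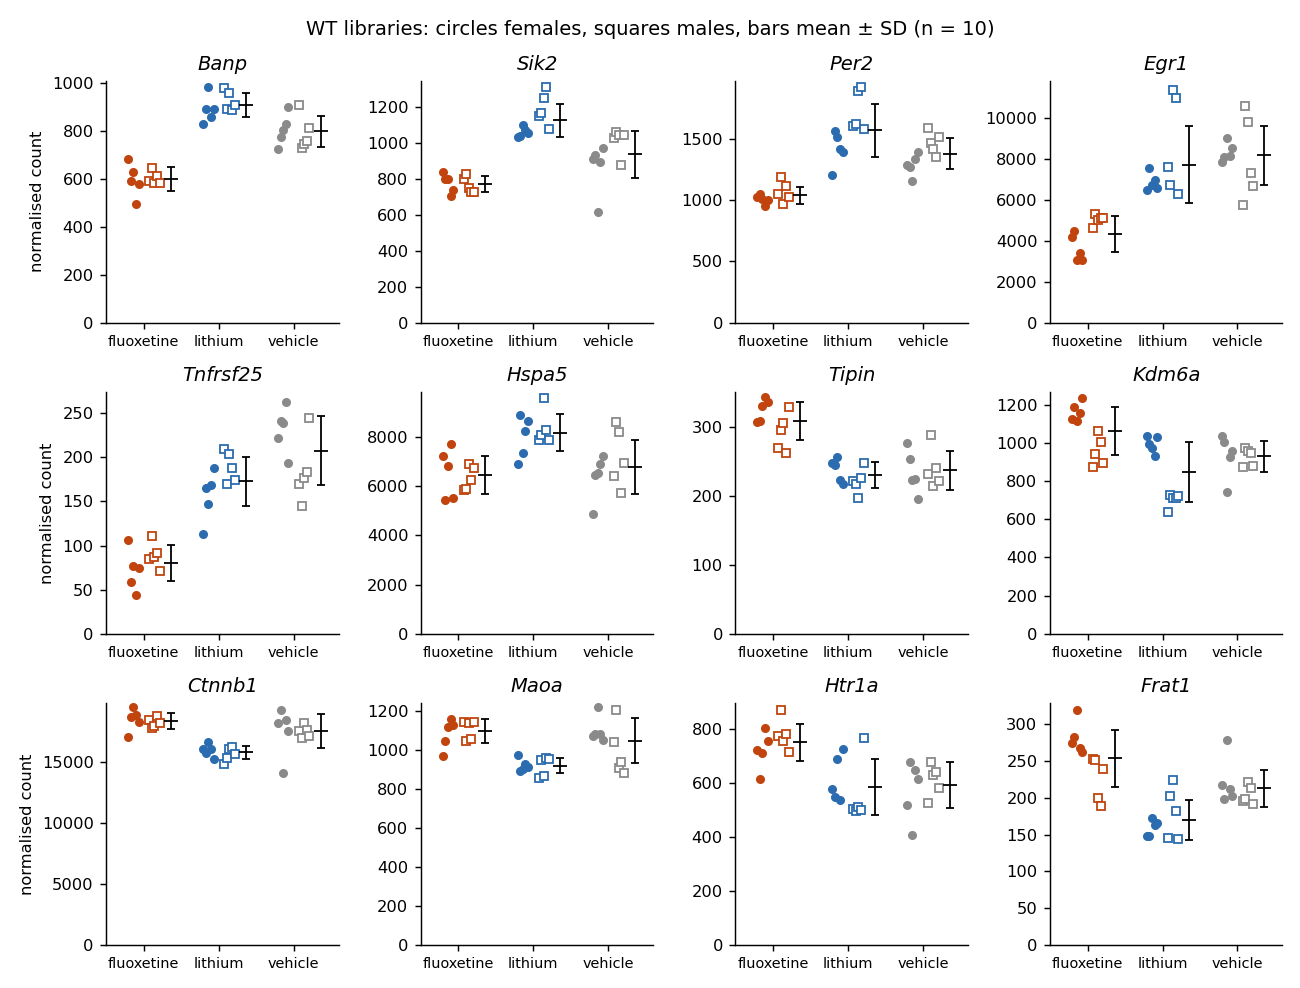
Normalised counts (y axis, from 0) of selected genes in every WT library, with fluoxetine left of lithium and vehicle at the right; points are single libraries, with females and males marked apart, and bars show mean ± SD (n = 10 each). Banp, Sik2, Per2 and Egr1 show fluoxetine libraries all below the lithium libraries, and Tipin and Ctnnb1 all above.

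Of 22 serotonin genes listed 19 were tested, and 2 passed, both higher in fluoxetine (2% of all genes were higher); the median log2 over the 19 was 0.14, beside 0.0013 over all genes tested. By edgeR and DESeq2 3 and 4 were higher and 0 lower, and with the marker levels described below as covariates 4 were higher and the median was -0.03. Htr1a, an inhibitory serotonin receptor gene, had 616.2–872.7 normalised counts under fluoxetine (median 755.3), 496.8–767.7 under lithium (median 542.3) and 408.4–679 under vehicle (median 622.8). In 4 of 10 fluoxetine libraries Htr1a was above every lithium library (log2 0.37 ± 0.08, adjusted p = 0.007983). Beside vehicle it was higher under fluoxetine (log2 0.35, adjusted p = 0.01509) and near vehicle under lithium (log2 -0.02, adjusted p = 0.9466). Maoa, the monoamine oxidase gene whose product breaks down serotonin, had 968.7–1160 normalised counts under fluoxetine (median 1123), 854.6–971.2 under lithium (median 919.6) and 881.7–1220 under vehicle (median 1061). In 9 of 10 fluoxetine libraries Maoa was above every lithium library (log2 0.25 ± 0.04, adjusted p = 0.0006747). Neither gene passed without the libraries rich in striatal markers (Htr1a log2 0.30, adjusted p = 0.228; Maoa log2 0.23, adjusted p = 0.0674).

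Htr2a, the excitatory receptor of cortical pyramidal cells, just missed the threshold (log2 0.25 ± 0.08, adjusted p = 0.0504), as did Htr7 (log2 0.26 ± 0.08, adjusted p = 0.05249). The values of the remaining receptor genes ran between -0.42 (Htr5b) and 0.19 (Htr2c) and did not pass. Maob stood at -0.07 (adjusted p = 0.5804). Slc6a4, the transporter that fluoxetine blocks, was not analysed here.

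Of 26 lithium target genes 4 passed, 2 in each direction (2% of all genes were higher and 3.76% lower); without the libraries rich in striatal markers 1 passed in each direction, and Frat2 and Akt2 did not. The kinases themselves did not pass: Gsk3a stood at 0.09 (adjusted p = 0.2894) and Gsk3b at -0.05 (adjusted p = 0.5656). Frat1 and Frat2, related genes on chromosome 19 whose products bind glycogen synthase kinase-3 and keep it from beta-catenin, were both higher in fluoxetine. Frat1 had 189–320 normalised counts under fluoxetine (median 257.7), 143.4–224.3 under lithium (median 164.4) and 192.3–278.4 under vehicle (median 206.9) (log2 0.58 ± 0.10, adjusted p = 0.0007621). Frat2 had 162–196.8 normalised counts under fluoxetine (median 176.8), 109.1–173.9 under lithium (median 143.3) and 162.3–228.4 under vehicle (median 184.2) (log2 0.31 ± 0.08, adjusted p = 0.01991). Beside vehicle both were lower under lithium (Frat1 log2 -0.33, adjusted p = 0.03446; Frat2 log2 -0.39, adjusted p = 0.007239), while under fluoxetine neither passed (log2 0.25 and -0.08). How reads that fit both genes were assigned is not given in the sources used here.

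Slc5a3, the sodium-coupled myo-inositol transporter gene, had 501.4–847.1 normalised counts under fluoxetine (median 578.2), 689.6–961.6 under lithium (median 817.8) and 550.9–889.4 under vehicle (median 732.3). It was lower in fluoxetine, with 7 of 10 fluoxetine libraries below every lithium library (log2 -0.44 ± 0.08, adjusted p = 0.001263). Nfat5, the osmotic-stress factor known to induce Slc5a3, was lower (log2 -0.18 ± 0.05, adjusted p = 0.02466), and so was the kinase gene Akt2 (log2 -0.19 ± 0.05, adjusted p = 0.02043). Without the libraries rich in striatal markers Nfat5 did not pass (log2 -0.16, adjusted p = 0.281). Its call also ended with the trend on GC content and length removed and with the replicate number as a block. A fit over all 59 libraries ended it too, as did 3 of the 20 omissions of a single library. The inositol phosphatase genes did not pass between the drugs: Impa1 stood at -0.05 (adjusted p = 0.5629), Impa2 at -0.17 (adjusted p = 0.3758), Inpp1 at 0.01 (adjusted p = 0.9671) and Bpnt1 at 0.02 (adjusted p = 0.8037). Impa1 was higher under lithium than under vehicle (log2 0.20, adjusted p = 0.02631). Of 47 tested genes of the canonical Wnt pathway, Ctnnb1 alone passed by limma, higher in fluoxetine (2% of all genes were higher). With the marker levels as covariates 6 were higher and 1 lower. In the main fit the 15 targets and inhibitors tested had a median of -0.05.

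Of 33 immediate early genes tested, 28 had negative values, and 11 were lower and 0 higher by limma, where 3.76% of all genes were lower; at an unadjusted p under 0.05 it was 19 lower and 0 higher, and edgeR and DESeq2 gave 14 and 16 lower, each with 0 higher. The list median was -0.34. Egr2 (chr10:67535475-67542188), an early growth response transcription factor gene, had 47.43–169.9 normalised counts under fluoxetine (median 112), 170.1–525.3 under lithium (median 220) and 215–504.3 under vehicle (median 352.2). No fluoxetine library reached the lithium range (log2 -1.31 ± 0.19, adjusted p = 0.0005772). Egr1, of the same family, had 3049–5289 normalised counts under fluoxetine (median 4552), 6289–11390 under lithium (median 6854) and 5767–10600 under vehicle (median 8115). Its groups did not overlap either (log2 -0.83 ± 0.10, adjusted p = 9.724e-05). Fos, a subunit of the AP-1 factor, had 197.2–646.6 normalised counts under fluoxetine (median 500.5), 524.2–1232 under lithium (median 781.6) and 602.4–1781 under vehicle (median 1024). Its groups overlapped, with 5 of 10 fluoxetine libraries below every lithium library (log2 -0.84 ± 0.20, adjusted p = 0.02011). Fos did not pass without the libraries rich in striatal markers (log2 -0.76, adjusted p = 0.203).

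The other transcription factors and stress-linked genes that passed were Nr4a3 (log2 -0.50), Ier5 (log2 -0.45), Egr4 (log2 -0.34) and Gadd45b (log2 -0.50). Among synaptic and secreted effectors, Homer1, a postsynaptic scaffold gene, had a median of 5504 normalised counts under fluoxetine and 7699 under lithium (log2 -0.48 ± 0.09, adjusted p = 0.002395). The neurotrophin gene Bdnf had a median of 828.1 normalised counts under fluoxetine and 999.1 under lithium (log2 -0.35 ± 0.10, adjusted p = 0.03308). Vgf, a secreted neuropeptide precursor gene, had a median of 3994 normalised counts under fluoxetine and 5234 under lithium (log2 -0.36 ± 0.10, adjusted p = 0.04032), and Pcsk1, a prohormone convertase gene, a median of 1402 normalised counts under fluoxetine and 1925 under lithium (log2 -0.32 ± 0.07, adjusted p = 0.01271). The calls of Egr4, Bdnf and Vgf ended with 9, 10 and 15 of the 20 omissions of a single library. Arc stood at -0.72 (adjusted p = 0.1207), Fosb at -0.60 (adjusted p = 0.0793), Nr4a1 at -0.48 (adjusted p = 0.05035) and Npas4 at -0.55 (adjusted p = 0.1407), and these did not pass.

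Beside vehicle, which both contrasts share, 868 of 17509 genes differed under fluoxetine (4.96%; 2.98% lower) and 227 under lithium (1.30%; 0.657% lower). Of the 33 immediate early genes 14 were lower under fluoxetine than under vehicle, with a median log2 of -0.42, and 2 were lower under lithium, with a median of -0.09. Egr1 stood at -0.92 for fluoxetine and -0.09 for lithium, Fos at -1.25 and -0.41, and Nr4a3 at -0.91 and -0.41. Homer1 stood at -0.28 and 0.20 and Bdnf at -0.15 and 0.20, and none of these 4 values passed. Without the libraries rich in striatal markers 6 of the 33 genes were lower in fluoxetine than in lithium, and the list median was -0.41.

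Inhibitors and targets of the ERK cascade were lower for 6 of 17 and higher for 0 by limma, where 3.76% of all genes were lower and 2% higher (10 lower and 1 higher at an unadjusted p under 0.05; 6 lower by edgeR and 7 by DESeq2, each with 0 higher), with a median of -0.19. Of the 6 Sprouty and Spred inhibitor genes 4 were lower. Spred2, which restrains Ras-ERK signalling, had 2420–3021 normalised counts under fluoxetine (median 2587), 2968–4143 under lithium (median 3447) and 2250–3631 under vehicle (median 3153). In 9 of 10 fluoxetine libraries Spred2 was below every lithium library (log2 -0.38 ± 0.06, adjusted p = 0.0003186). Dusp6, the phosphatase gene whose product inactivates ERK, had 1235–2170 normalised counts under fluoxetine (median 1647), 1668–2835 under lithium (median 2289) and 1837–2659 under vehicle (median 2281). In 5 of 10 fluoxetine libraries it was below every lithium library (log2 -0.43 ± 0.08, adjusted p = 0.003335). Spred1 (log2 -0.31), Spred3 (log2 -0.23), Spry4 (log2 -0.33) and the ETS factor gene Etv5 (log2 -0.19) passed as well. Without the libraries rich in striatal markers 3 of the 17 were lower.

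**Figure D3:**
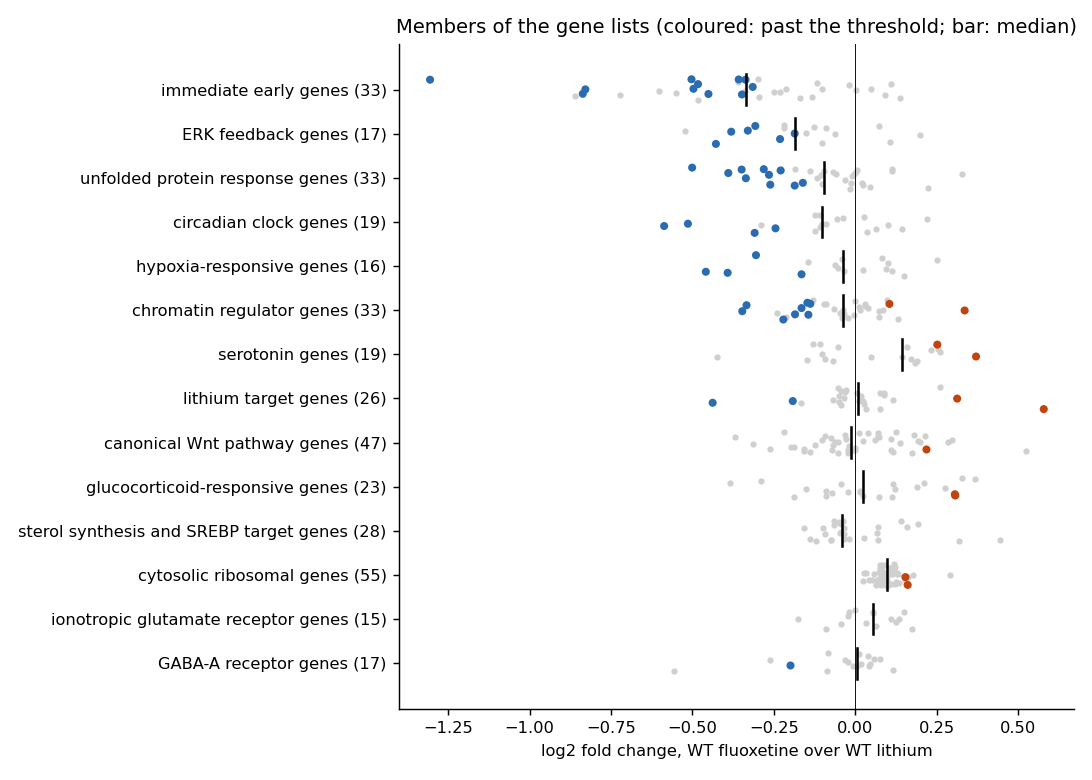
log2 fold change of WT fluoxetine over WT lithium (x axis) for each tested member of the gene lists (rows); coloured points passed the threshold, grey points did not, and the bar marks the list median. The immediate early gene median lies at -0.34, the unfolded protein response and clock medians at -0.10, and the serotonin median at 0.14.

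Of 33 unfolded protein response genes 10 were lower in fluoxetine than in lithium and 0 higher by limma, beside 3.76% and 2% of all genes (16 lower and 2 higher at an unadjusted p under 0.05; 10 lower and 0 higher by edgeR, 11 lower and 1 higher by DESeq2), with a median of -0.10. Of these calls 9 were among the 16 ER chaperones and enzymes and 1, Xbp1, among the 8 sensors and transcription factors. None of the 9 ATF4 targets was called. Hspa5 (chr2:34771970-34777547), which encodes the ER chaperone BiP, had 5442–7742 normalised counts under fluoxetine (median 6512), 6923–9597 under lithium (median 8177) and 4868–8625 under vehicle (median 6733). In 8 of 10 fluoxetine libraries Hspa5 was below every lithium library (log2 -0.35 ± 0.07, adjusted p = 0.002538). Sdf2l1, an ER chaperone cofactor gene, had 196.8–347.4 normalised counts under fluoxetine (median 237), 245–431.6 under lithium (median 357.1) and 185.5–387.6 under vehicle (median 263.2) (log2 -0.50 ± 0.10, adjusted p = 0.004949). Pdia4, a protein disulfide isomerase gene, had 650.2–1117 normalised counts under fluoxetine (median 848.7), 886.4–1384 under lithium (median 1099) and 864.2–1207 under vehicle (median 1032) (log2 -0.39 ± 0.08, adjusted p = 0.004949). The groups overlapped for both.

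The rest of the 10 were Creld2 (log2 -0.34), Hyou1, an ER chaperone gene (log2 -0.28), Dnajc3, an ER cochaperone gene (log2 -0.27), the transcription factor gene Xbp1 (log2 -0.26), the disulfide isomerase gene Pdia6 (log2 -0.23), the secreted ER protein gene Manf (log2 -0.19) and the calreticulin gene Calr (log2 -0.16). Beside vehicle all 10 had positive values under lithium, between 0.01 (Xbp1) and 0.42 (Sdf2l1), of which Pdia6 (log2 0.21, adjusted p = 0.04528) and Hyou1 (log2 0.23, adjusted p = 0.0371) passed. Under fluoxetine all 10 had negative values, between -0.28 (Pdia4) and -0.01 (Pdia6), of which Pdia4 (adjusted p = 0.0378) and Xbp1 (log2 -0.25, adjusted p = 0.005636) passed. The 10 were chosen for lower values in fluoxetine than in lithium, and both contrasts share vehicle. Opposite signs are therefore in part built in and are not separate evidence. Without WT vehicle female replicate 3 and male replicate 2, an alternative added with earlier results known, 5 of the 33 genes were higher under lithium than under vehicle. In that fit 448 of all genes passed for lithium (2.57%), 1.05% higher and 1.52% lower. Of the 991 genes that differed between the drugs, 397 then passed for fluoxetine beside vehicle, instead of 294, and 92 for lithium, instead of 45. These 2 vehicle libraries were kept in the other vehicle values given here. Without the 7 drug libraries rich in striatal markers 0 of 32 tested passed between the drugs (12 at an unadjusted p under 0.05, all lower); Hspa5 then stood at log2 -0.32, adjusted p = 0.104.

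**Figure D4:**
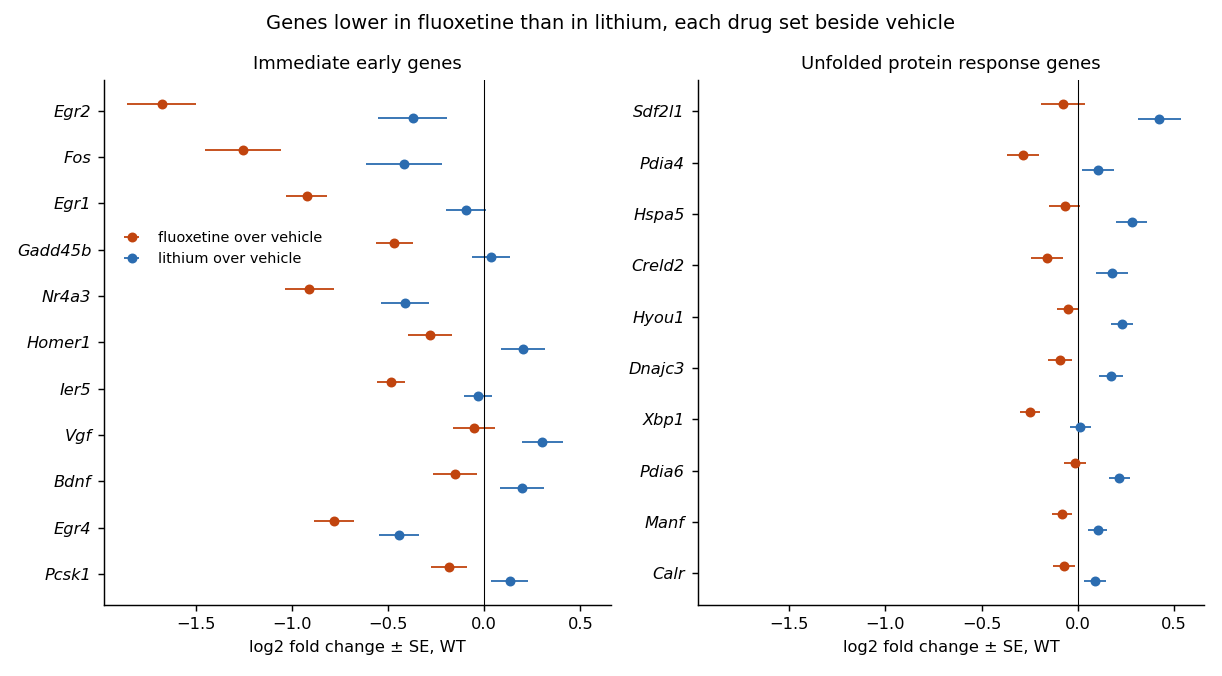
log2 fold change (x axis) of fluoxetine over vehicle and lithium over vehicle in WT for the 11 immediate early genes and 10 unfolded protein response genes that were lower in fluoxetine than in lithium; bars are SE, and both contrasts share the 10 vehicle libraries. Egr2, Fos and Egr1 lie at -1.68, -1.25 and -0.92 for fluoxetine, and Sdf2l1 and Hspa5 at 0.42 and 0.28 for lithium. The genes were chosen for the difference between the drugs, so values on opposite sides of vehicle are in part built in.

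Promoters of unfolded protein response genes are known to carry the ER stress response element, bound by NF-Y and ATF6 (letters CCAAT, then any 9 bases, then CCACG). The 250 bases before each annotated start were searched on both strands in the RefSeq promoters of build GRCm38.p6. The element was present in 37 of 32851 promoters (0.113%) and in 7 of the 30 response genes with an entry. Of the 8 of these genes that were lower in fluoxetine 5 held it, and of the 22 that did not pass 2 held it, Canx (log2 -0.02) and Hsp90b1 (log2 -0.12). The 5 promoters are shown 5′ to 3′ along the gene because they belong to genes that moved together and hold the element; capitals mark the match.
Hspa5: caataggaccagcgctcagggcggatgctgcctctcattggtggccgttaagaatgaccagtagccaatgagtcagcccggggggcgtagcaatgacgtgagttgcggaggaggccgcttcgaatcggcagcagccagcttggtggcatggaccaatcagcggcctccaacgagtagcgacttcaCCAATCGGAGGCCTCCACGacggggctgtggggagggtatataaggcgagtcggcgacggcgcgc
Pdia6: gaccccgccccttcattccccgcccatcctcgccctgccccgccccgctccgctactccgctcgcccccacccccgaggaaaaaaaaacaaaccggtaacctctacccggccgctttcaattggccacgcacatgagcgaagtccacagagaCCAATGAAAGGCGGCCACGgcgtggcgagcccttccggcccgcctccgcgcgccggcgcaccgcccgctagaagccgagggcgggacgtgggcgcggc
Dnajc3: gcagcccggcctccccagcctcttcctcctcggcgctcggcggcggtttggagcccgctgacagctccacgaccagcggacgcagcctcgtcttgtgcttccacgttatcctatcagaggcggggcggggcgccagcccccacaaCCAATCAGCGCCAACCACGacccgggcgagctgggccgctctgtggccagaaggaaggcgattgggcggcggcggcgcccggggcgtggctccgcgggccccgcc
Creld2: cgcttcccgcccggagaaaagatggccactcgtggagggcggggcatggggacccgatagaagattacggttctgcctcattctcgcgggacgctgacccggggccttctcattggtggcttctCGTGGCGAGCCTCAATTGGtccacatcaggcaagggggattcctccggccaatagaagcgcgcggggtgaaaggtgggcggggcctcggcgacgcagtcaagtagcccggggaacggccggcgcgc
Calr: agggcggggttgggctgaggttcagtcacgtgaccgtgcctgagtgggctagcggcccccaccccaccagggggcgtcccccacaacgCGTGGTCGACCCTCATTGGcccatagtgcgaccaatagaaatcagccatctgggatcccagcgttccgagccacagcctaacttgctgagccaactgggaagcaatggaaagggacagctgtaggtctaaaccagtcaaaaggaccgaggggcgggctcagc

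The stretches are chr2:34771840-34772089 (Hspa5), chr12:17266339-17266588 (Pdia6), chr14:118937682-118937931 (Dnajc3) and chr15:88819396-88819645 (Creld2) on the plus strand and chr8:84846932-84847181 (Calr) on the minus strand. Counting back from -1 at the base before the start, the matches begin at -65 in Hspa5, -98 in Pdia6, -105 in Dnajc3, -126 in Creld2 and -162 in Calr. In Creld2 and Calr the element lies on the opposite strand, so the capitals show its reverse complement. The clock E-box CACGTG, which the last letters of the ER element can form part of, was also searched and was present in 6.02% of promoters and in 0 of the 2 lower clock genes with an entry, and the cAMP response element TGACGTCA in 1.55% of promoters and in 1 of the 9 lower immediate early genes with an entry, Pcsk1. The CArG box, the SRF site, was present in 1.47% of promoters and in 1 of those 9, Egr2. These are matches of letters, and binding was not measured.

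Clock genes were lower in fluoxetine for 4 of 19 and higher for 0 by limma, beside 3.76% and 2% of all genes (6 lower and 1 higher at an unadjusted p under 0.05; 4 lower and 0 higher by edgeR, 5 lower and 1 higher by DESeq2), with a median of -0.10. Per2 (chr1:91415982-91459324), a repressor of the CLOCK and BMAL1 activator pair, had 956.3–1188 normalised counts under fluoxetine (median 1027), 1211–1929 under lithium (median 1577) and 1156–1590 under vehicle (median 1373). No fluoxetine library overlapped a lithium library (log2 -0.59 ± 0.06, adjusted p = 7.349e-07). Bhlhe40, a repressor that is also induced by activity, had 1594–2586 normalised counts under fluoxetine (median 2013), 2206–4236 under lithium (median 2796) and 2388–3580 under vehicle (median 2955) (log2 -0.51 ± 0.10, adjusted p = 0.00331). Arntl, which encodes BMAL1, had 700.8–811.8 normalised counts under fluoxetine (median 752.7), 733.9–1027 under lithium (median 873.4) and 675.2–970.6 under vehicle (median 835.8) (log2 -0.24 ± 0.05, adjusted p = 0.008423). For both genes the groups overlapped, with 7 and 4 of 10 fluoxetine libraries below every lithium library. The output genes Dbp (log2 0.10), Tef (log2 0.03) and Hlf (log2 -0.06) did not pass.

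Nr1d1, the gene of the REV-ERB alpha repressor, was lower (log2 -0.31 ± 0.07, adjusted p = 0.009085). It overlaps Thra, the thyroid hormone receptor alpha gene, on the opposite strand of chromosome 11, and Thra was higher (log2 0.15 ± 0.04, adjusted p = 0.03432). The library kit marked strand, but whether the counting used it is not given in the sources used here, so both values are uncertain where the genes overlap. The call of Thra ended with 9 of the 20 omissions of a single library. The labels do not give the time of day at which tissue was taken. Without the libraries rich in striatal markers 3 of the 19 clock genes were lower. With the replicate number as a block 2 of the 19 were lower, and Arntl (adjusted p = 0.0597) and Nr1d1 (adjusted p = 0.0707) did not pass.

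Of 16 hypoxia-responsive genes 4 were lower and 0 higher (3.76% and 2% of all genes): Pfkfb3, P4ha1, its paralog P4ha2 (log2 -0.30) and the demethylase gene Kdm3a (log2 -0.17). Vegfa (log2 -0.04), Hk2 (log2 -0.05) and Bnip3 (log2 -0.04) did not pass, and the list median was -0.04. Without the libraries rich in striatal markers 2 of the 16 were lower, and P4ha2 and Kdm3a did not pass; the call of Kdm3a also ended with 10 of the 20 omissions of a single library.

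Of 23 glucocorticoid-responsive genes 2 were higher in fluoxetine and 0 lower by limma (2% and 3.76% of all genes), and the direction of the list was not stable. DESeq2 gave 5 higher and 2 lower, the fit with marker levels as covariates 0 higher and 2 lower, and the fit without the libraries rich in striatal markers 0 in either direction (3 higher and 3 lower at an unadjusted p under 0.05). Sgk1, a kinase gene that acts on ion channels, had a median of 1953 normalised counts under fluoxetine and 1548 under lithium (log2 0.31 ± 0.09, adjusted p = 0.04022). The metallothionein gene Mt2 had a median of 1911 normalised counts under fluoxetine and 1570 under lithium (log2 0.31 ± 0.09, adjusted p = 0.04076). These calls ended with 13 and 12 of the 20 omissions of a single library.

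The contrasts of each drug with vehicle share the 10 vehicle libraries, so like values in both are not separate evidence. Fkbp5, a chaperone of the glucocorticoid receptor, had a log2 fold change over vehicle of 0.81 under fluoxetine and 0.84 under lithium, and -0.02 between the drugs. The lipid droplet gene Plin4 had 1.32 and 1.20 over vehicle and 0.12 between the drugs. Over the 23 genes 10 were higher under fluoxetine than under vehicle (background 1.98%) and 6 under lithium (background 0.64%).

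Chromatin regulators gave 8 lower and 2 higher of 33, beside 3.76% and 2% of all genes. Kmt2a, a histone methyltransferase gene of the trithorax group, as is Ash1l, had 3408–4542 normalised counts under fluoxetine (median 3838), 4292–6136 under lithium (median 4642) and 3667–6055 under vehicle (median 4876) (log2 -0.35 ± 0.06, adjusted p = 0.00152). Kmt2d, its relative, had 2993–3684 normalised counts under fluoxetine (median 3388), 3525–5004 under lithium (median 4267) and 3570–5833 under vehicle (median 4157) (log2 -0.33 ± 0.06, adjusted p = 0.0007577). In 9 and 8 of 10 fluoxetine libraries these genes were below every lithium library. Kmt2d passed without the libraries rich in striatal markers (log2 -0.335, adjusted p = 0.0345), and Kmt2a did not (log2 -0.27, adjusted p = 0.102). Beside vehicle both were lower under fluoxetine (Kmt2a log2 -0.33, adjusted p = 0.00246; Kmt2d log2 -0.36, adjusted p = 0.0008804) and stood at 0.02 and -0.02 under lithium. The demethylase genes Kdm5c (log2 -0.22), Kdm2a (log2 -0.14) and Kdm3a, the methyltransferase genes Nsd3 (log2 -0.18) and Kmt2c (log2 -0.15) and the deacetylase gene Hdac4 (log2 -0.14) were also lower, and Kdm6a and Hdac3 (log2 0.10) were higher. The calls of Hdac3, Kmt2c and Kdm2a ended with 17, 13 and 13 of the 20 omissions of a single library. Ash1l did not pass (log2 0.01 ± 0.03, adjusted p = 0.9023). With the trend on GC content and length removed the list gave 4 lower and 3 higher, and without the libraries rich in striatal markers 1 lower and 1 higher.

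Several groups gave few calls or none, beside 3.76% lower and 2% higher of all genes. Sterol synthesis genes gave 0 of 28 by limma (8 at an unadjusted p under 0.05; 0 by edgeR and 4 by DESeq2). Ionotropic glutamate receptor genes gave 0 of 15 (4 unadjusted; 0 by edgeR and by DESeq2), and mitochondrially encoded genes 0 of 13 (0 unadjusted; 0 by edgeR and by DESeq2). Of 17 GABA-A receptor genes Gabrd, the delta subunit found outside synapses, was lower (log2 -0.20 ± 0.05, adjusted p = 0.02209). Without the libraries rich in striatal markers Gabrd did not pass (log2 -0.175, adjusted p = 0.273). Cytosolic ribosomal protein genes gave 2 of 55, Rpl32 (log2 0.15) and Rps6 (log2 0.16), with all 55 values positive and a median of 0.10; with GC content and length removed 0 passed (7 at an unadjusted p under 0.05) and 50 of 55 were positive.

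The calls of the remaining lists are given beside 3.76% lower and 2% higher of all genes. Chordc1, a cochaperone gene of the HSP90 machinery, was lower in fluoxetine (log2 -0.34 ± 0.06, adjusted p = 0.001753) among 16 cytosolic heat shock genes, and Irf9, of the interferon response, was lower (log2 -0.32 ± 0.07, adjusted p = 0.009589) among 18 interferon-stimulated genes. Without the libraries rich in striatal markers Chordc1 (log2 -0.29, adjusted p = 0.055) and Irf9 (log2 -0.28, adjusted p = 0.118) did not pass. Of 34 autism risk genes the chromatin remodeller gene Chd2 (log2 -0.26 ± 0.05, adjusted p = 0.002224) and the postsynaptic scaffold gene Shank2 (log2 -0.20) were lower and the RNA helicase gene Ddx3x (log2 0.15) was higher; Kmt2c, counted above, was lower too. With the trend on GC content and length removed the autism list gave 1 lower and 3 higher, and without the libraries rich in striatal markers 1 lower and 0 higher; the calls of Shank2 and Ddx3x ended with 9 and 10 of the 20 omissions. Of 22 thyroid hormone genes Luzp1 (log2 -0.22) and the heavy neurofilament gene Nefh (log2 -0.24) were lower, and Flywch2 (log2 0.33) and Thra higher. With the trend on GC content and length removed 0 thyroid hormone genes were higher (3 at an unadjusted p under 0.05), without the libraries rich in striatal markers 0 passed (5 at an unadjusted p under 0.05), and the call of Flywch2 ended with 14 of the 20 omissions. Slc39a14, a zinc transporter gene, was lower and had a median of 837.6 normalised counts under fluoxetine and 935.3 under lithium (log2 -0.15 ± 0.04, adjusted p = 0.01773), and its call ended with GC content and length removed and without the libraries rich in striatal markers. Of 70 nuclear genes of oxidative phosphorylation Cox8a, a subunit of cytochrome oxidase, was higher (log2 0.17), a share under the 2% of all genes. This call ended by edgeR and with 17 of the 20 omissions, and with the trend on GC content and length removed the list gave 0 higher and 1 lower.

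Few cell type markers passed (3.76% of all genes were lower and 2% higher), while whole lists leaned to 1 side. Among 14 astrocyte markers Fgfr3 (log2 0.26 ± 0.06, adjusted p = 0.007756) and Agt (log2 0.41 ± 0.12, adjusted p = 0.04967) were higher in fluoxetine, among 16 oligodendrocyte and myelin markers Olig2 (log2 0.32 ± 0.08, adjusted p = 0.02281), and among 14 microglia markers P2ry12 (log2 0.24 ± 0.07, adjusted p = 0.03119). Of 14 endothelial markers Flt1, a vascular growth factor receptor gene (log2 -0.22 ± 0.04, adjusted p = 0.004827), and Cldn5, of tight junctions (log2 -0.19 ± 0.05, adjusted p = 0.02799), were lower. None of these 6 genes passed without the libraries rich in striatal markers, and the call of Agt also ended by edgeR and with 16 of the 20 omissions of a single library, that of P2ry12 with 7 and that of Cldn5 with 5. All 16 myelin markers had positive values, with a median of 0.21, and their summed level ranged over 83351–215932 under fluoxetine (median 155139) and 74460–232998 under lithium (median 122355). Striatal markers summed to 7569–21337 under fluoxetine (median 8464) and 6817–24098 under lithium (median 7837), with 14 of 15 values positive and a median of 0.22. Olfactory bulb markers summed to 10468–32473 under fluoxetine (median 13128) and 10358–33770 under lithium (median 14830), with all 10 values negative and a median of -0.26. Neither list gave a call, and their part in the results above was not tested beyond the fits given here. In bulk tissue fewer cells of a type and less RNA per cell cannot be told apart. With the striatal, olfactory bulb and myelin levels as covariates, an alternative chosen after the data were seen, 1507 genes passed, among them 941 of the 991 in the same direction. In that fit 12 immediate early genes were lower and 1 was higher, and 11 unfolded protein response genes were lower and 0 higher.

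In the female contrast 448 genes passed (2.6%), 153 higher (0.888%) and 295 lower (1.71%) in fluoxetine. In the male contrast 371 passed (2.15%), 109 higher (0.633%) and 262 lower (1.52%). Each compared 5 libraries a group in 1 fit whose spread was shared over the 20 WT drug libraries, so the counts are not independent. In both sexes 62 passed, all in the same direction. The count fell to 113 in females without WT lithium female replicate 2 and to 138 in males without WT lithium male replicate 3. Without the libraries rich in striatal markers it was 64 in females and 0 in males (1821 at an unadjusted p under 0.05 in males). That fit left out more male than female libraries, so fewer libraries were compared in males than in females. The drug by sex interaction gave 0 genes by limma (smallest adjusted p = 0.1673; 2123 at an unadjusted p under 0.05), 0 by edgeR and 123 by DESeq2. Its smallest p belonged to Zfp111 (log2 -0.31 in females and 0.27 in males), Adgrb2 (log2 0.24 and -0.25) and Ssr3 (log2 -0.22 and 0.31).

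In HT mice 875 of 17139 genes tested differed between fluoxetine and lithium (5.11%; 399 higher, 2.33%, and 476 lower, 2.78%, in fluoxetine; 10 fluoxetine and 9 lithium libraries). Of the 988 WT genes that were tested in HT, 923 (93.4%) had the same sign there, against 63.8% of the genes that did not pass in WT. In HT 208 passed in the same direction, which is 21.1% of the WT genes and 23.8% of the HT genes, and 0 passed in the opposite direction. The median HT log2 fold change of the 988, signed by the WT direction, was 0.16, beside 0.25 in WT, where the genes were chosen.

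Banp (HT log2 -0.39 ± 0.07, adjusted p = 0.001973), Sik2 (HT log2 -0.37 ± 0.07, adjusted p = 0.005919), Per2 (HT log2 -0.43 ± 0.11, adjusted p = 0.02694) and Fam53b (HT log2 -0.62 ± 0.06, adjusted p = 1.437e-06) were lower in HT fluoxetine as well. Kdm6a (HT log2 0.40 ± 0.05, adjusted p = 0.0001633), Ctnnb1 (HT log2 0.25 ± 0.04, adjusted p = 0.0012), Heyl (HT log2 1.11 ± 0.20, adjusted p = 0.004652) and Frat2 (HT log2 0.55 ± 0.09, adjusted p = 0.00198) were higher. Of the 33 immediate early genes 3 were lower in HT (background 2.78%), Ier5, Vgf and Klf4, with a list median of -0.14. Egr1 stood at -0.33 in HT (adjusted p = 0.2647) and Egr2 at -0.52 (adjusted p = 0.4341). Of the 33 unfolded protein response genes 4 were lower in HT, Pdia3, Dnajb11, Dnajc3 and Herpud1. Of these 4, Dnajc3 alone had passed in WT. Kmt2a (log2 -0.04) and Kmt2d (log2 0.02) lay near 0 in HT; their differences between the genotypes had an adjusted p of 0.2941 and 0.2756.

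The drug by genotype interaction gave 0 of 17660 genes by limma (smallest adjusted p = 0.12; 1705 at an unadjusted p under 0.05), 0 by edgeR and 25 by DESeq2. Among the genes with its smallest p were Mrpl55 (log2 0.13 in WT and -0.16 in HT) and Ap4e1 (log2 -0.02 in WT and 0.38 in HT). In HT the 10 olfactory bulb markers had a median log2 of 1.29 between the drugs and the 13 striatal markers tested one of -0.30, with no single marker past the threshold. With the striatal, olfactory bulb and myelin levels as covariates 21 genes passed between the drugs in HT.

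**Figure D5:**
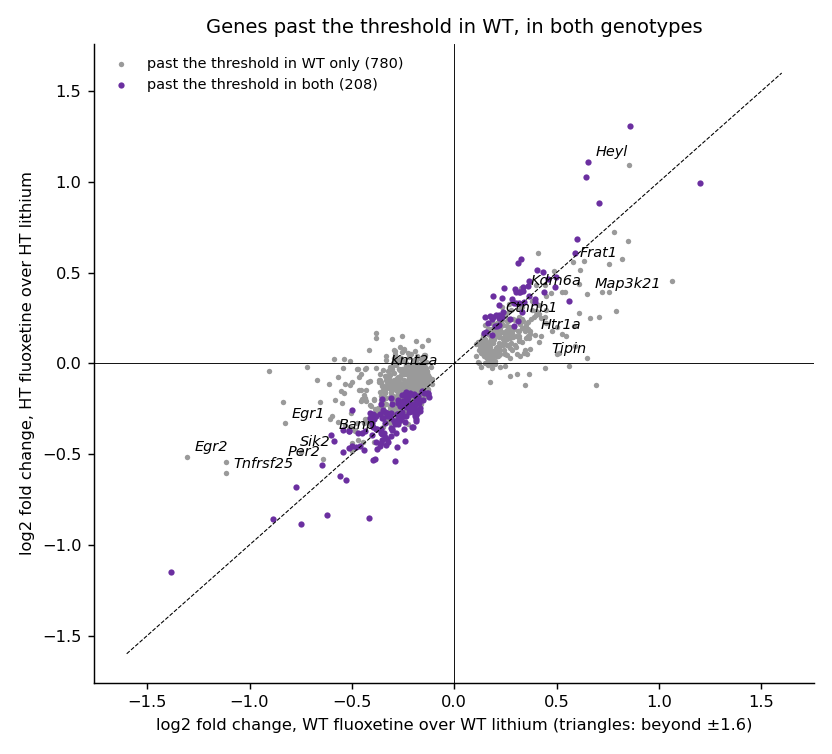
log2 fold change of fluoxetine over lithium in WT (x axis) and HT (y axis) for the 988 genes past the threshold in WT and tested in HT; 208 of them, coloured, also passed in HT, and the dashed line marks equal change. Of the 988, 923 lie on the same side of 0 in both genotypes.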

How the data were processed

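Bulk RNA of 59 mouse prefrontal cortex libraries was sequenced from a stranded mRNA kit, per the labels' protocols. Salmon 0.11.2, R 3.6.0, DESeq2 1.19.11 and GRCm38 are named in the submitters' processing notes, without their roles. The deposited table is a signal: gene counts divided by size factors by the authors, for 18088 genes. Dividing each library by its smallest value gave whole reads for 100.0% of values (tolerance 0.01). Totals were 24470332–36323070 reads.

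The main test was limma 3.58.1 (R 4.3.3; trend, robust) on log2(normalised count + 1), so fold changes of low genes are understated. Genes with at least 10 normalised counts in at least 5 of the fitted libraries were kept (858 left out). Sex was a block, and p-values were Benjamini-Hochberg adjusted over all genes tested. Limma was used because the values are normalised; edgeR 4.0.16 and DESeq2 1.42.0 on the recovered read counts were alternatives. The main limma test alone was tried on simulated counts with known changes, made for the 20 WT drug libraries. The other fits were not tried in this way. Each sex, the sex and genotype interactions, HT and both drugs beside vehicle were fitted likewise. Positions come from GENCODE M21, promoters from RefSeq.

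Named genes were, in each direction, the 12 with the smallest p and the 5 with the largest fold among those averaging at least 50 normalised counts, without predicted, clone-named and pseudogenes; list members that passed; serotonin and lithium target genes, by count or range where they did not pass; and the 3 smallest p of each interaction. 1 gene under this rule is not reported here. Genes named with values outside this rule were chosen after their values were seen. Members and lists were chosen with earlier results of these data known.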

Additional observations from a re-analysis of the deposited data

Results flagged for a closer look

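In 57 described genes the 4 groups of 5 WT drug libraries of 1 sex were checked, 228 groups in all, for a library far from the rest: its gap to the nearest library had to exceed 0.71 of the group's range. Chance flags about 1 in 20 groups, and 10 groups were found.

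Among fluoxetine groups, Eif2s3x was low in male replicate 4 (3081 normalised counts, others 3319–3375), and Sgk1 was low in male replicate 3 (1658, others 1895–1990). Ier5 was high in male replicate 1 (1496, others 1367–1395), and Spred2 was high in female replicate 1 (2852, others 2528–2598).

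Among lithium groups, Hspa5 (9597, others 7866–8288) and Pdia4 (1384, others 1049–1108) were both high in male replicate 3. Egr2 was high in female replicate 2 (352.7, others 170.1–217.8), and Htr1a was high in male replicate 5 (767.7, others 496.8–510.7). Kdm6a was low in male replicate 1 (639.9, others 711–730.6), and Adgrb2 was low in male replicate 2 (13390, others 14570–14860).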

How the results depend on the processing

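The 991 genes between fluoxetine and lithium in WT became 1446 by DESeq2, 1006 by edgeR, 791 in a fit over all 59 libraries, 978 with GC content and length removed (393 higher and 585 lower, of which 760 were among the 991 in the same direction), 956 without the filter, 950 without sex, 994 with a pseudocount of 10 and 996 with TMM scaling. They became 344 at an adjusted p of 0.01, 283 at a difference of at least 25% of the lower group's mean, 140 without the libraries rich in striatal markers and 1507 with marker levels as covariates. Leaving out single libraries gave 704–1041. With the replicate number as a block 492 genes passed in both sexes together, 42 in females and 60 in males. In the block fit of both sexes 7 immediate early, 4 ERK cascade, 7 unfolded protein response and 2 clock genes were lower, instead of 11, 6, 10 and 4. Same-numbered samples did not deviate together (correlations of -0.271 to 0.216, 1 of 10 over 0.1, 0 of 10 best with their own number). These 10 correlations did not show pairing by number, and whether a number marks a litter or batch was not tested. The 448 genes in females became 204 with GC content and length removed, 964 by DESeq2, 235 over all 59 libraries and 64 without the libraries rich in striatal markers (113–522 without single libraries). The 371 in males became 102, 787, 230 and 0 under the same settings, in that order, and 1316 with the covariates (138–600 without single libraries). The count of 0 comes from the fit that left out more male than female libraries. The sex interaction gave 123 by DESeq2 and 13 with the covariates (0–0 without single libraries). The 875 in HT became 1549 with GC content and length removed, 1515 by DESeq2 and 21 with the covariates (502 without HT lithium female replicate 1, up to 1145). The genotype interaction gave 25 by DESeq2 (0–1 without single libraries). The cause of these shifts was not tested. Of 95 named genes past the threshold, 34 kept the call under all 11 alternatives and all single omissions, the block ended 34 calls and GC content with length 17, and 0 values reversed. The 95 passed in the main fit, which holds largely the same libraries, so kept signs are not separate evidence. Low genes are limited by depth and by the pseudocount.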

Other observations

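Genes lower in fluoxetine were longer than the rest: the median transcript length was 4866 bases for the lower genes and 2796 for the higher genes, against 3226 for all genes tested. The Spearman correlation of the log2 fold change was -0.213 with transcript length and 0.057 with GC content, across genes, which are not independent replicates.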
